A study of Mus musculus with 24 samples.

Results

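The comparison set liver tumours of mice given sorafenib against liver tumours of mice given vehicle, with every sorafenib time pooled. Its members were the 7 sorafenib libraries and the 3 vehicle libraries, taken from their titles, 10 of the 24 libraries of the series. All mice were Lap-tTA/Tet-O-MYC on the FVB/N background. In this model the tetracycline transactivator is driven by the Lap promoter in hepatocytes and switches on a human MYC transgene when doxycycline is withdrawn, so every tumour, vehicle included, expressed that transgene by design. Tumour-bearing mice received a first dose and a second dose 7 days later. Sorafenib was given by oral gavage at 30 mg/kg per day, and HCC tumour pieces were frozen 4 h (3 libraries), 24 h (2 libraries) or 48 h (2 libraries) after the second dose. Vehicle (Transcutol, Solutol HS 15 and water) was injected into the peritoneum once a week at 10 mg/kg, and its 3 libraries were from 24 h. The route and the schedule of dosing therefore differed along with the drug, and their part cannot be told apart from it. The series has no vehicle library from 4 h or 48 h, so at those times the part of time cannot be told apart from the drug. No age at collection, and no statement that each library was a separate mouse, was found in the labels, so p-values measure the spread between these samples, which may be technical.

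Sorafenib is an oral inhibitor of several protein kinases that is used to treat advanced hepatocellular carcinoma. Its best known targets are the RAF kinases, which pass signals from RAS to MEK and ERK, and receptor tyrosine kinases of blood vessels and their supporting cells, among them the VEGF receptors, the PDGF receptors and KIT. ERK activity is commonly read from genes that it induces within minutes to hours, such as Egr1, Fos and the Dusp and Spry feedback inhibitors, and vessel cells are read from endothelial genes such as Cdh5, Emcn and Kdr.

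Expression was measured by RNA sequencing of bulk tumour tissue and is given as FPKM, a measure scaled to gene length and to a depth factor of the library. Of 54403 genes in the table, 12088 reached an FPKM of 1 in 2 or more of the 10 libraries and were tested. The gene just inside this threshold was Oas1b, with a second highest FPKM of 1.00018, and the one just outside was Cd7, with 0.99961. The depth factor was read from the size of 1 read in the FPKM values. It was 31.1 to 38.0 M reads in the vehicle libraries and 32.9 to 41.7 M in the sorafenib libraries (two-sided exact permutation p = 0.658, 120 arrangements). Reads summed over genes were 31.9 to 36.7 M in vehicle and 33.3 to 40.2 M in sorafenib. For vehicle 2 the sum, 31.9 M, was above the factor, 31.1 M, so the factor is not a count of all reads. Rank correlations between libraries were 0.939 to 0.958 within vehicle, 0.957 to 0.985 within sorafenib and 0.942 to 0.977 between them, so vehicle libraries were no more alike than libraries of different groups. The share of all FPKM in mitochondrially encoded genes was 4.21 to 8.07% in vehicle and 3.88 to 5.12% in sorafenib (exact permutation p = 0.050, 0.30 after Benjamini-Hochberg adjustment over 6 such measures). Hepatocyte transcripts were abundant in every library, with Alb at 732 FPKM or more. Each library also has a code in its description, and no first part of a code was shared by vehicle and sorafenib, so whatever that part stands for cannot be told apart from treatment.

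No gene differed between sorafenib and vehicle after adjustment over all genes. By limma, 0 of 12088 genes (0%) had an adjusted p under 0.05, and the smallest adjusted p was 0.202. A fit of the same model by limma voom on recovered reads also called 0, with 1188 at an unadjusted p under 0.05. Without adjustment, 1221 genes had a p under 0.05, of which 581 (4.81% of those tested) were higher with sorafenib and 640 (5.29%) were lower. That number depended on single vehicle libraries and on the fit. It was 1872 without vehicle 1 (6.87% of all genes higher and 8.61% lower) and 1685 without vehicle 2 (7.88% and 6.06%). Without vehicle 3 the number was 658 (2.16% and 3.28%). When all 24 libraries of the series gave the spread it was 211 (0.86% of all genes higher and 0.885% lower). That spread takes in unlike libraries. Low FPKM values were whole reads for 3.18 to 4.49% in the doxycycline and RMC-4627 libraries and 30.6% in RMC-6272 72 h replicate 3. In the 10 libraries compared here it was 98.3 to 98.6%. With the code of each sample's description as a random block, 727 genes had an unadjusted p under 0.05 (2.87% higher and 3.14% lower). All 7 sorafenib libraries lay above all 3 vehicle libraries for 164 genes (1.36%) and below them for 207 genes (1.71%). Differences were small. The median log2 difference over all genes was 0.00051, and 19 genes differed by 2-fold or more on the log2(FPKM + 1) scale used for every fold here. The median standard error was 0.12 on that scale. The plot of difference against p shows where 4 gene lists described below sit in this distribution. All gene groups that follow are given as counts and values, since no member passed the adjusted threshold. The members named under a list are mostly those with its smallest p in this same comparison. Their separation is therefore no result. The lists and their members were chosen with earlier results of these data known. Their counts, set beside the share of all genes, are therefore a description and no test. In other settings the share of all genes moved too. Higher and lower, it was 6.67% and 7.61% without the 4 h libraries and 2.95% and 2.9% without the 24 h libraries. It was 3.33% and 3.86% without the 48 h libraries and 5.43% and 6.04% with array weights. A change in a list's count between settings is therefore not by itself a trait of the list.

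**Figure D1:**
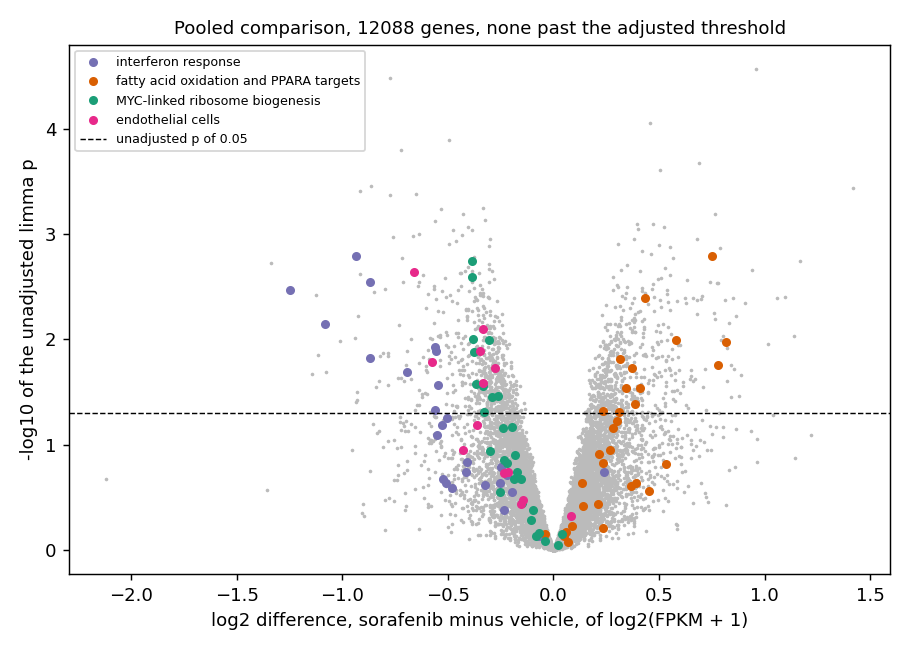
Each point is 1 of 12088 genes, with the log2 difference of log2(FPKM + 1) between 7 sorafenib and 3 vehicle libraries on the x axis and −log10 of the unadjusted limma p on the y axis. Most interferon, ribosome biogenesis and endothelial genes lie left of 0 and most fatty acid oxidation genes lie right of it, but none of the 12088 genes passed the adjusted threshold.

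The kinases that sorafenib inhibits showed 1 difference at an unadjusted p under 0.05, which 10.1% of all genes had. Of 14 listed target kinases 8 were tested, 4 with a higher and 4 with a lower mean, and the median log2 difference was −0.03. Kdr, the main VEGF receptor of endothelial cells, was the one with a p under 0.05. Its FPKM was 1.53, 1.16 and 1.02 in vehicle libraries 1 to 3, and 0.583 to 1.01 (median 0.727) in the sorafenib libraries. Thus every sorafenib library lay below every vehicle library, though the highest and the lowest nearly met (log2 difference −0.35, SE 0.12, adjusted p = 0.405). Araf, a RAF kinase, measured 14.5, 15.7 and 13.6 in vehicle and 14.3 to 19.5 in sorafenib, with a log2 difference of 0.18 (SE 0.09). Braf gave a log2 difference of 0.04 (SE 0.10). The groups overlapped for Araf and for Braf. Csf1r, the macrophage growth factor receptor, gave 0.06 (SE 0.18), Kit, the stem cell factor receptor, −0.19 (SE 0.20), Fgfr1 −0.17 (SE 0.15) and the pericyte receptor Pdgfrb −0.10 (SE 0.19). Flt1, Flt4, Pdgfra, Flt3, Ret and Tek were too low to be tested. The highest FPKM among these 6 was 1.02, for Flt4 in vehicle 1.

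Transcripts that report RAS-ERK signalling went in both directions. Of 22 listed genes 12 were tested, 3 with a higher and 9 with a lower mean. At an unadjusted p under 0.05 there was 1 higher and 1 lower gene, and the median log2 difference was −0.18. Of all genes 4.81% were higher and 5.29% lower at that p. Egr1, an immediate early transcription factor induced by ERK, measured 3.20, 3.48 and 3.43 in vehicle and 1.30 to 3.08 (median 1.84) in sorafenib. All 7 sorafenib libraries lay below the 3 vehicle libraries, which were close together (log2 difference −0.56, SE 0.15, adjusted p = 0.368). Errfi1, a feedback inhibitor of the EGF receptor, went the other way, with 22.3, 14.3 and 13.4 in vehicle and 17.2 to 45.9 in sorafenib (log2 difference 0.64, SE 0.28, adjusted p = 0.484). The ERK phosphatase Dusp6, often used as a readout of the pathway, was 4.76, 4.23 and 3.74 in vehicle and 3.07 to 5.57 in sorafenib. Its log2 difference was −0.06 (SE 0.13), with values of both groups fully mixed. The remaining tested members were Epha2 at −0.32 (SE 0.16), Myc at −0.32 (SE 0.17), Dusp5 at −0.24 (SE 0.13), Spred2 at −0.20 (SE 0.17), Phlda1 at −0.19 (SE 0.31), Ier3 at −0.16 (SE 0.23), Ccnd1 at −0.06 (SE 0.20), Dusp7 at 0.03 (SE 0.11) and Spry1 at 0.01 (SE 0.10). The Myc entry is the mouse gene, to which reads of the human transgene may align in part, so it is no measure of the transgene. The other 10 members, Dusp4, Spry2, Spry4, Spred1, Spred3, Etv1, Etv4, Etv5, Fosl1 and Epha4, were below the level tested, with at most 1.26 FPKM in any library.

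In the wider list of immediate early genes, all 14 tested members had a lower mean with sorafenib. Of these, 2 (Egr1 and Ier2) had an unadjusted p under 0.05, where 5.29% of all genes were lower at that p. The median log2 difference was −0.21. Fos, an AP-1 subunit, was 3.30, 3.01 and 2.59 in vehicle. It was 2.63, 4.10 and 1.37 in the 4 h libraries, 0.351 and 1.79 at 24 h, and 1.36 and 1.29 at 48 h. The 4 h libraries straddled the vehicle range and the later ones lay below it (pooled log2 difference −0.58, SE 0.31). The count of 2 was 1 without vehicle 2, vehicle 3, sorafenib 24 h library 1 or 2, sorafenib 4 h library 3 or sorafenib 48 h library 2, and 3 without sorafenib 4 h library 2. It was 8 without the 4 h libraries, 1 with the code block and 0 with the spread of all 24 libraries. The list's median over the 3 times was −0.0043 at 4 h, −0.47 at 24 h and −0.31 at 48 h, and 6 of its 14 members had an unadjusted p under 0.05 in the F test among the times, where 6.71% of all genes did.

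Most genes of blood vessel cells had lower means with sorafenib. Of 13 tested endothelial genes 12 had a lower mean and 6 had an unadjusted p under 0.05, all lower, where 5.29% of all genes did. The median log2 difference was −0.33. By library, the list's median relative to the vehicle mean was 0.21, 0.16 and −0.41 in vehicle libraries 1 to 3 and ran from −0.46 to −0.11 in sorafenib, so vehicle 3 lay within the sorafenib range. In bulk tissue, fewer endothelial cells and less of these RNAs per cell cannot be told apart. Sox18, an endothelial transcription factor, measured 5.93, 5.80 and 3.68 in vehicle and 2.17 to 3.85 (median 2.48) in sorafenib (log2 difference −0.66, SE 0.17, adjusted p = 0.368). Emcn, a sialomucin of capillaries and veins, was 1.19, 0.981 and 1.09 in vehicle and 0.473 to 0.773 in sorafenib, with no overlap (log2 difference −0.33, SE 0.10). Of the 13 members 2 had every sorafenib library below vehicle. Cdh5, the endothelial cadherin, was 7.95, 5.69 and 3.38 against 2.51 to 4.46, where vehicle 3 lay within the sorafenib range (log2 difference −0.58, SE 0.20). The count of 6 rested on which vehicle libraries were used. It was 3 without vehicle 1, 3 lower and 1 higher without vehicle 2, 11 without vehicle 3, 3 with array weights and 1 with the spread of all 24 libraries. Among genes chosen after their values were seen, the membrane protein Cav1 of caveolae was 2.67, 3.91 and 5.24 in vehicle and 1.06 to 2.17 in sorafenib. The same absence of overlap was seen for Cd34, with 1.53, 1.71 and 2.32 against 0.683 to 1.21, for the pericyte antigen Cd248, with 1.58, 2.37 and 3.14 against 0.919 to 1.32, and for the semaphorin receptor Plxnd1, with 5.09, 3.97 and 4.08 against 2.42 to 3.28. Given how these 4 genes were chosen, their separation is no result, and 1.71% of all genes tested lay below vehicle in this way. Vehicle 3 was the highest library for Cav1, Cd34 and Cd248, but had the lowest list median of the vehicle libraries. Genes of the liver's sinusoidal endothelium were evenly split, 4 higher and 4 lower of 8, with none at an unadjusted p under 0.05. Angiogenesis factors numbered 4 higher and 10 lower of 14, 2 of them lower at an unadjusted p under 0.05. The VEGF gene Vegfa was 9.63, 7.40 and 5.06 in vehicle and 5.46 to 8.29 in sorafenib, a log2 difference of 0.01 (SE 0.17).

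Matrix genes and fibroblast genes had lower means too, with a wide spread in vehicle. Of 23 tested extracellular matrix genes 20 had a lower mean and 9 an unadjusted p under 0.05, all lower, where 5.29% of all genes did, and the median log2 difference was −0.39. Lamb1, a laminin chain of basement membranes, was 1.25, 1.90 and 1.47 in vehicle and 0.496 to 1.19 in sorafenib, without overlap (log2 difference −0.53, SE 0.14, adjusted p = 0.368). Of the 23 members 1 had every sorafenib library below vehicle, where 1.71% of all genes did. Postn, a matricellular protein of activated fibroblasts, was 1.57, 1.16 and 2.45 against 0.631 to 1.28, with overlap (log2 difference −0.51, SE 0.16). Col4a2, a basement membrane collagen, was 24.6, 28.2 and 37.2 against 16.0 to 27.3 (log2 difference −0.48, SE 0.17). The count of 9 was 3 without vehicle 3, where the median was −0.24, 5 without the 4 h libraries and 2 with the spread of all 24 libraries. Of 12 tested genes of stellate cells and fibroblasts 10 had a lower mean (median −0.50) but 1 had a p under 0.05, the pericyte gene Rgs5 (log2 difference −0.74, SE 0.28). That count was 5 without vehicle 2, and 2 without vehicle 1, vehicle 3, sorafenib 24 h library 2, sorafenib 4 h library 1 or 3, or sorafenib 48 h library 1. It was 2 with array weights and 0 without the 24 h libraries or with the spread of all 24 libraries. The median was −0.32 without vehicle 1 and −0.31 without vehicle 3. The fibrillar collagen Col1a1 was 12.6, 15.1 and 44.4 in vehicle and 6.07 to 22.6 in sorafenib, so that vehicle 3 alone lay above the sorafenib range. Bile duct and progenitor genes were lower in 8 of 8 members by the mean, 2 of them at an unadjusted p under 0.05. Krt7, a duct keratin, was 5.605, 7.69 and 7.91 in vehicle and 1.42 to 6.41 in sorafenib. Cldn4, a tight junction claudin, was 9.20, 10.96 and 19.95 against 2.46 to 13.8. Both were chosen as the members with the smallest p, and both overlapped between the groups. The list's count was 1 without vehicle 3, 3 without vehicle 2, 4 without sorafenib 48 h library 1 and 1 with the spread of all 24 libraries. Its median, −0.34, was −0.10 without vehicle 3 and −0.74 without vehicle 2.

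Interferon-induced genes had the lowest list median. Of 26 tested members 25 had a lower mean with sorafenib, 10 had an unadjusted p under 0.05, all lower, and the median log2 difference was −0.52, while 5.29% of all genes were lower at that p. Interferons induce these genes through transcription factors that bind an element in their promoters. Isg15, a ubiquitin-like antiviral protein, measured 21.6, 30.8 and 13.0 in vehicle. It was 8.37, 9.07 and 7.02 at 4 h, 5.49 and 5.64 at 24 h, and 6.78 and 18.9 at 48 h. Thus 6 of 7 sorafenib libraries lay below the vehicle range and 1 of the 48 h libraries lay within it (log2 difference −1.25, SE 0.34, adjusted p = 0.368). Zbp1, a sensor of nucleic acids, was 3.29, 3.74 and 2.02 in vehicle and 0.686 to 2.47 (median 0.897) in sorafenib (log2 difference −0.93, SE 0.22, adjusted p = 0.368). Cxcl10, a chemokine for T cells, was 15.0, 31.2 and 20.2 against 7.73 to 15.1 (log2 difference −0.87, SE 0.23, adjusted p = 0.368). Ifit3, an antiviral RNA-binding protein, was 6.20, 5.44 and 2.86 against 0.552 to 3.48 (log2 difference −1.08, SE 0.33, adjusted p = 0.404). No member of the list had all 7 sorafenib libraries below all 3 vehicle libraries.

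The spread within each group was as large as this difference. The median over the 26 members, relative to the vehicle mean, was 0.32, 0.17 and −0.48 in vehicle libraries 1 to 3. It was −0.59, −0.33 and −0.79 at 4 h, −0.63 and −0.66 at 24 h, and −0.77 and 0.10 at 48 h. Vehicle 3 therefore sat among the sorafenib libraries, and sorafenib 48 h library 2 sat among the vehicle libraries. The count of 10 was 19 without vehicle 3, 14 without sorafenib 48 h library 2 and 4 without vehicle 1. It was 4 with array weights or the spread of all 24 libraries and 16 with the replicate number as a block. The median ran from −0.78 to −0.36 over the libraries left out in turn. Immune cell lists that could accompany an interferon signal were mostly below the level tested: 4 of 20 T and natural killer cell genes, 2 of 11 dendritic cell genes and 1 of 13 neutrophil genes passed the filter. Cd8a was at most 0.303 FPKM in any library. MHC class II genes, mainly of antigen-presenting cells, had a lower mean in 8 of 8 tested members, 1 of them at an unadjusted p under 0.05. Their median by library was −0.17, 0.68 and −0.62 in vehicle libraries 1 to 3 and −0.60 to −0.20 in sorafenib. Vehicle 2 stood far above the rest, and vehicle 3 was below every sorafenib library. Of all genes 5.29% were lower at that p. MHC class I genes numbered 3 higher and 15 lower of 18, with none at that p.

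**Figure D2:**
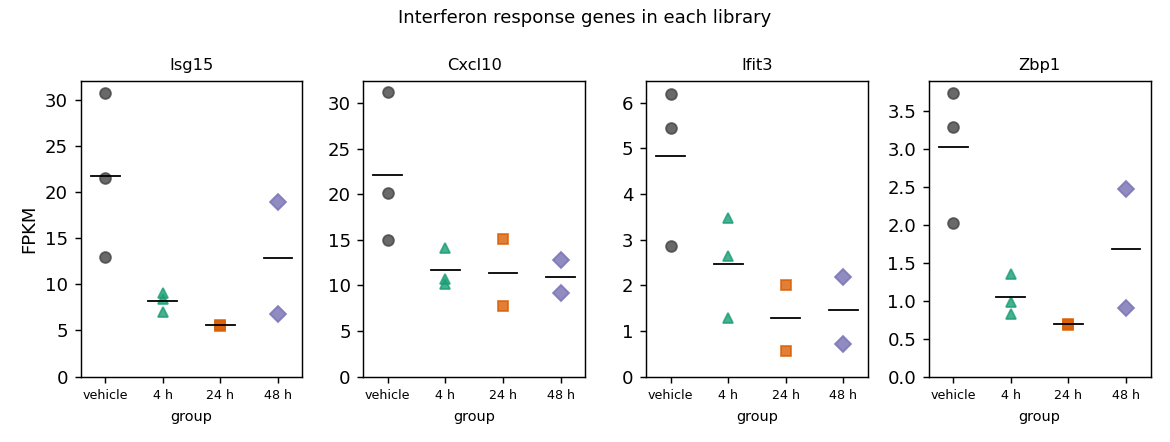
FPKM of Isg15, Cxcl10, Ifit3 and Zbp1 on a linear axis from 0, 1 point per library, with a short line at each group's mean, for vehicle (3 libraries) and sorafenib at 4 h (3), 24 h (2) and 48 h (2). The lower of the points at 48 h lies with the other sorafenib libraries in each panel, while the upper one reaches into the vehicle range for Isg15 and Zbp1.

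The promoters of 3 of these 4 genes are shown because most members had lower means and many carry a common element. Each window runs from 250 bases before to 50 bases after the gene's start, read 5′ to 3′ along the gene, from RefSeq on build GRCm38.p6. Capitals mark each match to GAAANNGAA, the core of the interferon-stimulated response element, on either strand, and overlapping matches run together.
Isg15 (chr4:156200769-156201068, minus strand): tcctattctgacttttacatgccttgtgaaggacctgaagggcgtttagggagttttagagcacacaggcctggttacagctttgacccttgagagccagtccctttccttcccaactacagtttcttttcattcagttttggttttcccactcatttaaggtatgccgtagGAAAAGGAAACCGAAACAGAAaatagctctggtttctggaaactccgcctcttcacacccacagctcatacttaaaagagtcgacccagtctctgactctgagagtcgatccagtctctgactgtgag
Ifit3 (chr19:34583279-34583578, plus strand): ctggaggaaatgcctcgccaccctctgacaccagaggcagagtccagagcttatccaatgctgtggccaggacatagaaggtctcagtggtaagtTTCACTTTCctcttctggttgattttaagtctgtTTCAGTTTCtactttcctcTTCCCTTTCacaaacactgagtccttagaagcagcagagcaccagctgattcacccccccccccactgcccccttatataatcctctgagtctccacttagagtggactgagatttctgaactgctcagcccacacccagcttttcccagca
Cxcl10 (chr5:92348840-92349139, minus strand): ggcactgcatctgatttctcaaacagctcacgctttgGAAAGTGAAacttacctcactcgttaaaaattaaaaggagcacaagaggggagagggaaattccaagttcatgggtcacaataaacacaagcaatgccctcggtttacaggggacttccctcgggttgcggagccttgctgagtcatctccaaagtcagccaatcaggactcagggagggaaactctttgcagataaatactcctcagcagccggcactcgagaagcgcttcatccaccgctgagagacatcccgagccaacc
Isg15 had 3 overlapping matches from 78 bases before its start, Ifit3 had 3 matches between 155 and 102 bases before its start, and Cxcl10 had 1 match 213 bases before it. Of 26 tested interferon genes 20 had a window, and 14 of them (70%) held the motif. Among all tested genes with a window it was 711 of 8702 (8.17%), and among all windows of this length 8.56%. A match is a description of these letters and not a shown binding site.

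Genes of fatty acid oxidation had higher means with sorafenib. Of 30 tested members of the list of fatty acid oxidation and PPARA targets 29 had a higher mean, and 12 had an unadjusted p under 0.05, all higher, where 4.81% of all genes did. The median log2 difference was 0.31. Ppara, the nuclear receptor that induces this programme in fasting liver, was 2.46, 0.998 and 0.986 in vehicle and 1.83 to 5.21 (median 3.18) in sorafenib (log2 difference 0.82, SE 0.26, adjusted p = 0.404). Creb3l3, a membrane-bound liver transcription factor that acts with it, was 48.2, 46.9 and 30.8 in vehicle and 55.0 to 90.1 (median 68.9) in sorafenib, without overlap (log2 difference 0.75, SE 0.18, adjusted p = 0.368). Acads, the short-chain acyl-CoA dehydrogenase, was 64.2, 83.2 and 70.2 against 83.4 to 119, so that the groups just met without overlap (log2 difference 0.43, SE 0.12). Of the 30 members 2 had every sorafenib library above vehicle, where 1.36% of all genes did. Acadvl, which acts on very long chains, was 24.8, 22.98 and 12.9 against 23.5 to 37.1 (log2 difference 0.58, SE 0.19). The list's median was 0.17 at 4 h, 0.41 at 24 h and 0.38 at 48 h. Vehicle 3 had the lowest list median of the 10 libraries, −0.23, and without it the median over members was 0.23 and the count of 12 became 2. In that setting 2.16% of all genes were higher at the same p. The count was 6 with the code block or without the 24 h libraries, 5 without the 48 h libraries and 1 with the spread of all 24 libraries.

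Genes of glucose output and of glucocorticoid response also had higher means, with fewer members. Of 15 tested genes of gluconeogenesis and glycogen 13 had a higher mean and 4 an unadjusted p under 0.05, all higher (median 0.29), where 4.81% of all genes were higher at that p. G6pc, the glucose-6-phosphatase that releases glucose from the liver, was 3.13, 1.999 and 3.16 in vehicle. It was 5.96, 4.50 and 5.84 at 4 h, 16.3 and 6.63 at 24 h, and 8.71 and 4.99 at 48 h, with every sorafenib library above vehicle (log2 difference 1.10, SE 0.30, adjusted p = 0.368). Ppp1r3c, which directs a phosphatase to glycogen, was 1.60, 0.816 and 0.571 against 1.36 to 3.60 (log2 difference 0.76, SE 0.23). The count of 4 was 2 without vehicle 2 or with the spread of all 24 libraries, and the median was 0.14 without vehicle 3 and 0.49 without vehicle 1. Of 12 tested glucocorticoid targets 8 had a higher mean and 4 an unadjusted p under 0.05, all higher (median 0.26), again against 4.81% of all genes. None of the 12 had such a p with the spread of all 24 libraries. The median was 0.12 without vehicle 3, 0.43 without vehicle 1 and 0.15 without the 4 h libraries. The 4 genes were Per1, a clock gene, Tsc22d3, an anti-inflammatory mediator, Fkbp5, a chaperone of the glucocorticoid receptor, and Zbtb16, a zinc finger factor. Tsc22d3 was 3.84, 2.96 and 5.31 in vehicle and 5.26 to 7.74 in sorafenib (log2 difference 0.54, SE 0.15, adjusted p = 0.368). Fkbp5 was 10.8, 12.8 and 11.1 against 12.7 to 15.0 (log2 difference 0.25, SE 0.08). Both of these overlapped at their edges. Of 15 tested clock genes 8 had a higher and 7 a lower mean. The hour of collection is not given in the labels used here, and its part in these lists was not tested. Plasma protein genes, the secreted products of hepatocytes, had a higher mean in 27 of 38 members with none at an unadjusted p under 0.05. None of 16 tested CAR and PXR targets, the usual drug-induced genes of liver, had such a p either, 7 higher and 9 lower by the mean. Cyp3a11, the main one of them, ran from 1.98 to 53.2 in vehicle and from 0.902 to 54.5 in sorafenib.

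Genes of ribosome biogenesis, a programme induced by MYC, had lower means. Of 28 tested members 26 had a lower mean and 10 an unadjusted p under 0.05, all lower (median log2 difference −0.23), where 5.29% of all genes were lower at that p. Gnl3, a nucleolar GTPase, was 46.5, 43.7 and 49.2 in vehicle and 31.3 to 39.3 (median 36.3) in sorafenib, without overlap (log2 difference −0.39, SE 0.09, adjusted p = 0.368). Nop58, a core protein of box C/D nucleolar particles, was 24.0, 23.4 and 27.3 against 16.8 to 20.99, also without overlap (log2 difference −0.38, SE 0.10). Of the 28 members 3 had every sorafenib library below vehicle, where 1.71% of all genes did. Mybbp1a, a nucleolar regulator of ribosomal RNA synthesis, was 123, 140 and 141 against 84.3 to 125 (log2 difference −0.38, SE 0.12). Wdr12, a factor for the large subunit, was 9.88, 11.2 and 12.6 against 7.81 to 10.1 (log2 difference −0.31, SE 0.10). The list's median was −0.10 at 4 h, −0.37 at 24 h and −0.27 at 48 h. The count of 10 was 6 without vehicle 2, 3 without vehicle 3 and 4 without the 24 h libraries, where the median was −0.15. It was 5 with the code block and 0 with the spread of all 24 libraries. The E-box CACGTG, the DNA motif of MYC, was in the promoter windows of 5 of 23 members (21.7%) and of 12.3% of all tested genes with a window. Genes of nucleotide metabolism linked to MYC were lower by the mean in 18 of 25 members, 2 of them at an unadjusted p under 0.05.

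Cell division genes differed little. Of 30 tested genes of G2/M and mitosis 22 had a lower mean and 4 an unadjusted p under 0.05, all lower, where 5.29% of all genes did, but the median log2 difference was −0.04. Kif23, a kinesin of cytokinesis, had the smallest p, with 5.93, 4.30 and 5.35 in vehicle and 3.46 to 3.93 in sorafenib (log2 difference −0.39, SE 0.09). Cdk1, the mitotic kinase, was 40.4, 49.1 and 55.6 against 34.1 to 45.03 (log2 difference −0.28, SE 0.11). Plk1, a kinase of mitotic entry, was 57.2, 65.0 and 77.8 against 42.5 to 64.9 (log2 difference −0.35, SE 0.14), and Ube2c, a ubiquitin-conjugating enzyme of mitotic exit, was 92.0, 116 and 167 against 80.7 to 112 (log2 difference −0.39, SE 0.17). The count of 4 was 1 without vehicle 2 or without vehicle 3, 6 without vehicle 1 and 2 without sorafenib 24 h library 1. It was 1 with the code block, without the 24 h libraries or without the 48 h libraries, and 0 with the spread of all 24 libraries. Of 35 genes of S phase 15 had a higher and 20 a lower mean, 1 of them at an unadjusted p under 0.05. The proliferation marker Mki67 was 23.9, 20.02 and 24.9 in vehicle and 18.1 to 24.4 in sorafenib, a log2 difference of −0.06 with a 95% interval of −0.29 to 0.17. Mitochondrially encoded genes had a lower mean in 12 of 13 members, 4 at an unadjusted p under 0.05 (median −0.32). mt-Cytb, a subunit of respiratory complex III, was 5660, 3938 and 7033 in vehicle and 3119 to 4155 in sorafenib, so that vehicle 2 lay within the sorafenib range (log2 difference −0.60, SE 0.17). Without vehicle 2 the count was 7 and the median −0.52, without vehicle 1 the median was −0.19, and without vehicle 3 the count was 2. It was 2 with no filter on low values and 0 with the spread of all 24 libraries. Nuclear genes of oxidative phosphorylation went the other way by the mean, 23 higher and 7 lower of 30, with 2 higher at an unadjusted p under 0.05. By library, that list's median was −0.27, 0.14 and 0.11 in vehicle libraries 1 to 3 and ran from −0.039 to 0.30 in sorafenib. Vehicle 1 alone lay below the sorafenib range, and the other vehicle libraries lay within it.

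Macrophage and liver identity genes had mostly higher means. Of 18 tested macrophage and Kupffer cell genes 13 had a higher mean and 5 a lower one, down to a log2 difference of −0.63. The list median was 0.32. An unadjusted p under 0.05 was seen for 5 members, all higher, where 4.81% of all genes were higher at that p. The 4 members with the smallest p follow. Mrc1, the mannose receptor, was 2.40, 2.03 and 1.47 in vehicle and 2.43 to 4.18 in sorafenib, so that the groups nearly met without overlap (log2 difference 0.50, SE 0.15, adjusted p = 0.404). Cd5l, secreted by tissue macrophages, was 177, 160 and 52.4 against 147 to 295 (log2 difference 0.89, SE 0.33). Timd4, a receptor for dying cells on resident Kupffer cells, was 8.38, 5.28 and 3.45 against 5.68 to 12.1 (log2 difference 0.65, SE 0.25), and Mertk, a kinase of the same task, was 4.00, 4.15 and 2.29 against 3.13 to 5.74 (log2 difference 0.40, SE 0.17). Vehicle 3 was the lowest library for all 4 genes, and without it the count was 1 and the median 0.15. The count was 2 with the code block, 1 without the 24 h libraries and 0 with the spread of all 24 libraries. It was 3 without sorafenib 24 h library 1 or 2 or sorafenib 4 h library 2. Clec4f, a Kupffer cell gene chosen after its values were seen, was 20.6, 3.25 and 0.121 in vehicle. Its sorafenib libraries, at 0.134 to 11.2, all lay within that range. Of 18 tested liver transcription factors 12 had a higher mean and 5 an unadjusted p under 0.05, all higher (median 0.21), but 0 without vehicle 3, where the median was 0.11, and 3 without sorafenib 24 h library 1 or sorafenib 4 h library 3. It was 3 with the code block, with the 3 times weighted equally, without the 24 h libraries or without the 48 h libraries, 2 at an FPKM of 5 or more and 1 with the spread of all 24 libraries. Rxra, the partner of PPARA and other nuclear receptors, was 31.9, 32.0 and 23.4 in vehicle and 31.3 to 42.0 in sorafenib (log2 difference 0.38, SE 0.12). Onecut1 was 2.94, 1.49 and 1.02 against 2.01 to 3.43 (log2 difference 0.47, SE 0.18), and Foxa3 was 28.9, 42.4 and 33.3 against 37.8 to 47.8 (log2 difference 0.29, SE 0.12).

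Among fetal liver and tumour genes, 10 of 16 tested members had a higher mean, as did 6056 of all 12088 genes. At an unadjusted p under 0.05 there were 4 higher and 1 lower members (list median 0.18). Of all genes 4.81% were higher and 5.29% lower at that p. Igf2, a fetal growth factor, was 17.2, 9.13 and 15.0 in vehicle. It was 20.9, 14.3 and 17.6 at 4 h, 51.8 and 28.5 at 24 h, and 42.0 and 20.2 at 48 h (log2 difference 0.88, SE 0.36, adjusted p = 0.452). H19, the noncoding RNA of the same imprinted locus, was 3587, 5728 and 6433 in vehicle and 5546 to 9497 in sorafenib (log2 difference 0.53, SE 0.21). Peg3, another imprinted gene, gave 0.60 (SE 0.24) and Golm1, a Golgi membrane protein raised in liver cancer, gave 0.61 (SE 0.24), both as log2 differences. Trim71, an RNA-binding protein of early development, was 7.48, 6.68 and 8.48 in vehicle and 5.53 to 6.55 in sorafenib, without overlap (log2 difference −0.27, SE 0.08). The 4 higher genes became 1 without vehicle 3 and 2 without sorafenib 48 h library 1. They became 2 with array weights, 1 with the code block or without the 24 h libraries, and 0 without the 48 h libraries or with the spread of all 24 libraries. The median was 0.03 without vehicle 3 and 0.48 without vehicle 2. The fetal albumin homologue Afp was 1291, 1869 and 1075 in vehicle and 984 to 2203 in sorafenib, and its log2 difference of 0.20 had a 95% interval of −0.42 to 0.81. Alb ran from 732 to 2849 in vehicle and from 866 to 3545 in sorafenib.

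The plot of list medians by library places these groups side by side. Of 62 lists 54 had at least 5 tested members. In 13 of these 54 no member had an unadjusted p under 0.05. Over all genes 10.1% had one. Lists that the drug or the transgene could bear on and that had no member with such a p included p53 targets (6 higher and 15 lower of 21), NRF2 targets and glutathione genes (10 and 14 of 24), glycolysis (10 and 15 of 25) and acute phase genes (9 and 14 of 23). The mTOR and 4EBP pathway list had 17 higher and 9 lower of 26, with 2 higher at that p.

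**Figure D3:**
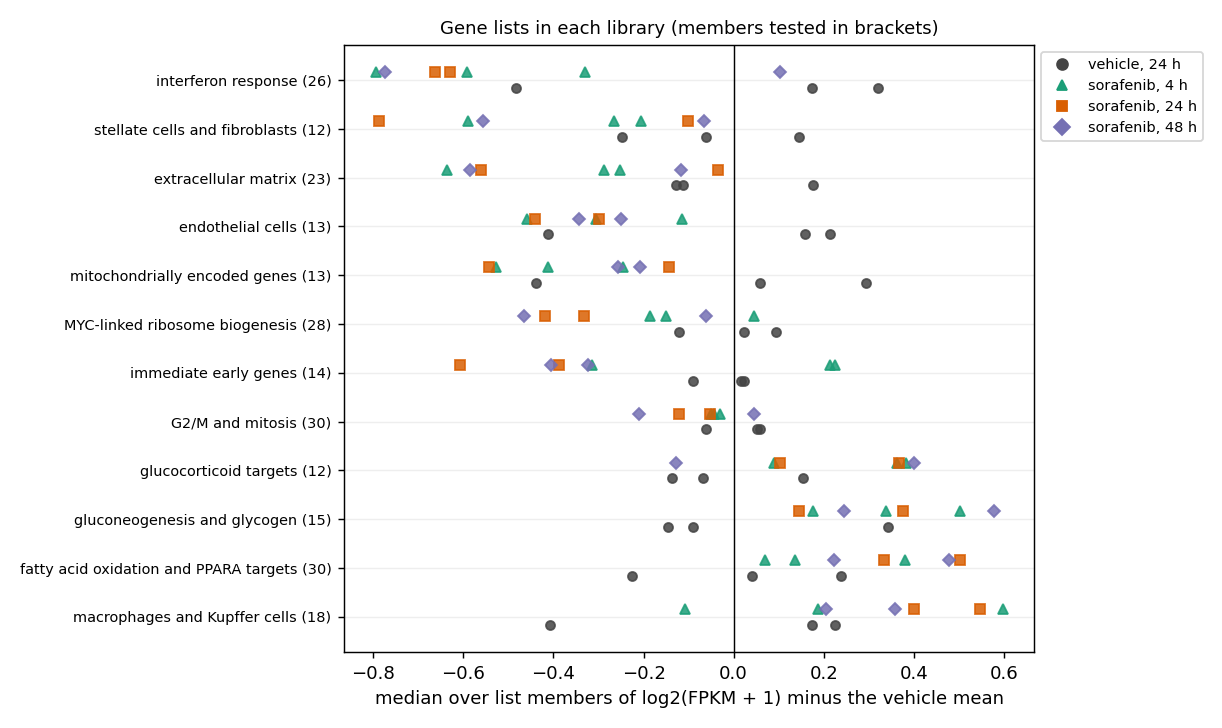
Each row is 1 gene list and each point 1 library, placed at the median over the list's tested members of log2(FPKM + 1) minus the vehicle mean, with vehicle below and sorafenib above the row line. The groups overlap in every row, and for interferon genes the vehicle libraries run from −0.48 to 0.32 and the sorafenib libraries from −0.79 to 0.10.

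By rule, the named genes were the 24 with the smallest p, 12 in each direction, among annotated genes without overlap and with a mean of at least 5 FPKM in the higher group. Their adjusted p ran from 0.357 to 0.368, so they are given as values. The 12 higher ones had log2 differences of 0.35 to 0.75. Snap23, a SNARE protein of vesicle fusion, had the smallest p, with 5.01, 4.20 and 4.01 in vehicle and 6.03 to 6.98 (median 6.32) in sorafenib, a log2 difference of 0.46 (SE 0.08, adjusted p = 0.357). The lowest sorafenib library lay well above the highest vehicle library. Arf6, a small GTPase of membrane traffic, was 44.1, 46.9 and 35.6 against 62.4 to 90.0 (log2 difference 0.69, SE 0.13). Acot3, a peroxisomal acyl-CoA thioesterase, was 3.63, 3.09 and 3.86 against 4.25 to 5.83 (0.51, SE 0.09). Mxd4, which competes with MYC for its partner MAX, was 5.18, 4.96 and 4.13 against 5.66 to 7.36 (0.40, SE 0.09). Foxo4, a forkhead factor held inactive by AKT, was 17.9, 20.7 and 18.7 against 22.4 to 32.5 (0.50, SE 0.12). Per1 was 5.16, 5.17 and 4.65 against 6.37 to 9.55 (0.52, SE 0.12), and the lysosomal membrane protein Scarb2 was 8.54, 7.36 and 7.24 against 9.14 to 13.9 (0.53, SE 0.13). The others were Tpm3, a tropomyosin (0.47), Taco1, a translational activator of mitochondria (0.57), Ip6k1, an inositol phosphate kinase (0.35), Ccdc117 (0.38) and Creb3l3, given above. For Taco1 the groups nearly met, since vehicle 1 and the lowest sorafenib library both measured 12.9.

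The 12 lower ones had log2 differences of −0.31 to −0.76. Sulf2, a secreted enzyme that trims sulfates from heparan sulfate, was 9.01, 7.31 and 7.09 in vehicle and 2.66 to 6.37 (median 4.27) in sorafenib, a log2 difference of −0.76 (SE 0.17, adjusted p = 0.368). Tmem200b was 7.08, 8.71 and 6.34 against 3.19 to 4.94 (−0.72, SE 0.13). Nrde2, a nuclear protein of RNA surveillance, was 7.22, 8.33 and 7.25 against 4.18 to 5.81 (−0.50, SE 0.09, adjusted p = 0.368). Gmps, which makes GMP, was 19.8, 17.6 and 21.9 against 12.7 to 15.7 (−0.43, SE 0.09). Dnajc2, a chaperone at the ribosome, was 23.8, 24.7 and 30.0 against 15.3 to 20.2 (−0.49, SE 0.11). Others were Troap, a spindle-associated protein (−0.40), Kif23 (−0.39), the tRNA methyltransferase subunit Trmt11 (−0.34), TMEM5 (−0.32), Rbbp6, a ubiquitin ligase (−0.31), and the small nucleolar RNA Snord89 (−0.64). None of the 24 genes passed the adjusted threshold in any other setting run. They were chosen for the absence of overlap, so their separation is no result.

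**Figure D4:**
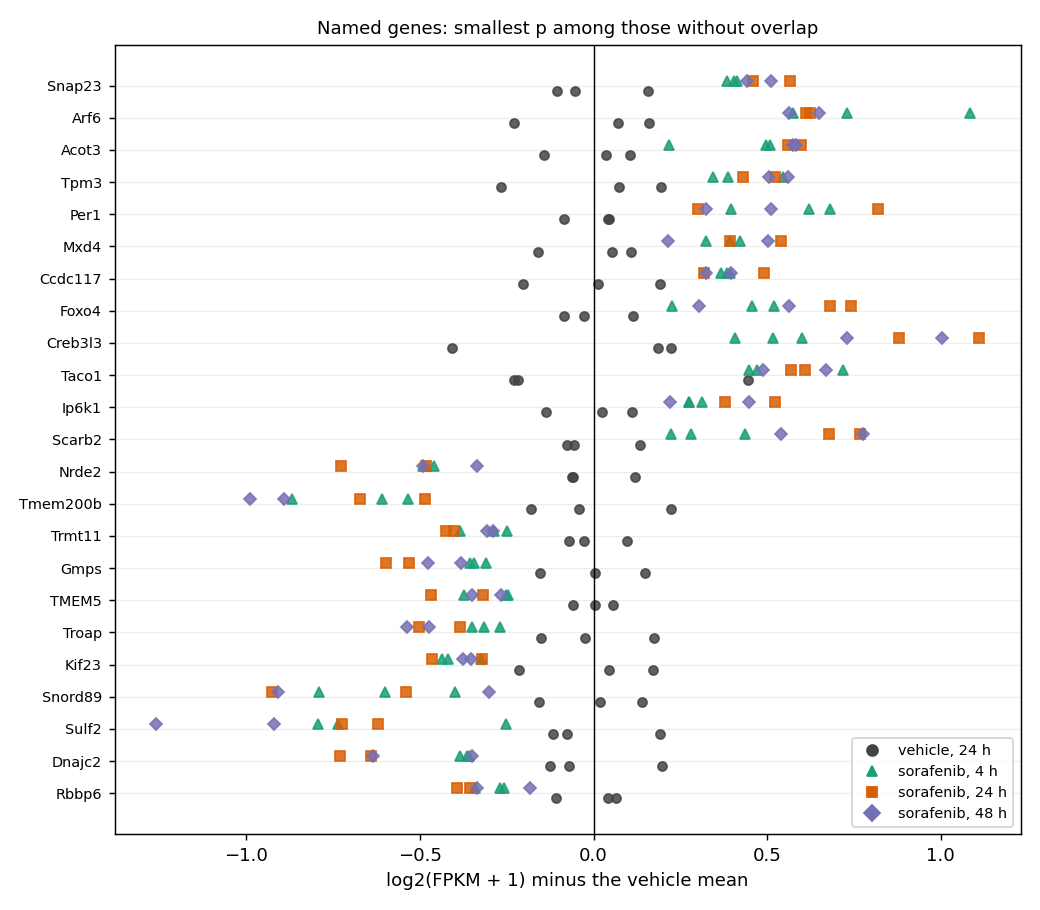
Named genes described in the text, 1 row each, with log2(FPKM + 1) minus the vehicle mean on the x axis and 1 point per library, vehicle below and sorafenib above the row line. All rows are separated because that was the rule of choice, and the 4 h libraries are the nearest to vehicle for Creb3l3, Scarb2 and Gmps.

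Each sorafenib time was also set against the same 3 vehicle libraries, which the 3 comparisons share. At 4 h, 3 of 12088 genes (0.0248%) had an adjusted p under 0.05, and 695 had an unadjusted one. The second number was 1201 without vehicle 1, 1446 without vehicle 2, 408 without sorafenib 4 h library 1 and 141 with the spread of all 24 libraries. Kctd15, a potassium channel tetramerisation domain protein, was lower, with 0.632, 0.887 and 0.760 FPKM at 4 h, 3.60, 2.95 and 2.60 in vehicle and 2.34 to 2.92 in the 24 h and 48 h libraries (log2 difference −1.20, SE 0.12, adjusted p = 0.0268). The call was lost when any library but vehicle 3 was left out, and also with no filter, the spread of all 24 libraries, the replicate number as a block (adjusted p = 0.0985), array weights or voom. Gm25361, an annotated microRNA gene inside Ankrd52, was higher, with 3.20, 4.53 and 3.92 against 1.04, 1.27 and 1.43 (log2 difference 1.11, SE 0.12, adjusted p = 0.0357). These were 8 to 12 reads against 3 or 4. It also had the smallest pooled p. Reads of the host gene cannot be told apart from it, and its call was lost when any 1 library was left out. It was also lost with no filter, both other scalings, the spread of all 24 libraries, either block, array weights or voom. Hmga1b was the third gene and is described below. At 24 h 0 genes (0%) had an adjusted p under 0.05 by limma and 0 by voom, with 1692 by limma and 1588 by voom at an unadjusted p under 0.05 and a smallest adjusted p of 0.0609. The limma number was 485 without sorafenib 24 h library 1, 1079 without library 2 and 300 with the spread of all 24 libraries. At 48 h it was again 0 (0%) by both, with 958 and 935 at an unadjusted p under 0.05 and a smallest adjusted p of 0.362. Here the limma number was 2199 without vehicle 1, 618 without vehicle 3, 330 without sorafenib 48 h library 1 and 121 with the spread of all 24 libraries.

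The genes that the naming rule took at each time are given as values. They have the smallest p among annotated genes with a mean of at least 5 FPKM in the higher group, and genes outside these conditions had smaller p. Besides Hmga1b, at 4 h the rule took Irgm2 and Irgm1, interferon-induced GTPases, Lypd8 and Arf6. Irgm2 measured 3.03, 3.73 and 3.20 at 4 h, 4.63 and 3.57 at 24 h and 7.45 and 7.38 at 48 h, against 8.40, 9.61 and 5.69 in vehicle. The 4 h and 24 h libraries lay below vehicle and the 48 h libraries within its range (log2 difference at 4 h −1.02, SE 0.17, adjusted p = 0.394). Without vehicle 3 Irgm2 passed the adjusted threshold at 4 h. Lypd8 was 6.26, 6.88 and 9.84 at 4 h against 1.56, 2.63 and 3.71 in vehicle (log2 difference 1.28, SE 0.24). At 24 h it took Vim, Scarb2, Fbxo6, Naa20 and Gstm5, each with an adjusted p of 0.202. Vim, the intermediate filament of mesenchymal cells, was 10.9 and 12.6 at 24 h and 14.0 and 12.8 at 48 h, and 20.7, 20.2 and 15.7 at 4 h against 20.6, 25.5 and 22.2 in vehicle (log2 difference at 24 h −0.90, SE 0.15). Gstm5, a glutathione transferase, was 10.6 and 13.5 at 24 h against 22.3, 32.5 and 37.7 (log2 difference −1.27, SE 0.22), and Naa20, an acetyltransferase subunit, was 11.5 and 15.5 against 22.2, 24.2 and 26.1 (−0.81, SE 0.14). At 48 h it took Tmem200b (−0.94, SE 0.15), Sulf2 (−1.09, SE 0.18), Scarb2 (0.66, SE 0.12), Vim (−0.72, SE 0.15) and Fbxo6, a substrate receptor of a ubiquitin ligase (−0.58, SE 0.12), with adjusted p from 0.527 to 0.62.

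Differences among the 3 sorafenib times were tested by an F test, which called 2 of 12088 genes (0.0165%), Hmga1b and Mir1950, and gave 811 at an unadjusted p under 0.05. The second number was 381 and 511 without sorafenib 24 h library 1 and 2, 464 and 490 without sorafenib 4 h library 1 and 2, 523 with the code block, 156 with the spread of all 24 libraries and 2084 with array weights. Mir1950, an annotated microRNA gene inside Kif20b, was at 3.84 and 4.09 FPKM at 24 h, 1.36 and 0.649 at 48 h and listed at 0 in each of the 4 h libraries (adjusted p = 0.0328). Vehicle was at 0.355, 0.435 and 0. The sorafenib values are 10 and 11 reads, 4 and 2 reads, and 0 reads. The call was lost with a pseudocount of 0.1 (adjusted p = 0.484), the replicate block (0.0765), the code block (0.0904) and voom (0.597), and when any library but vehicle 3 or a 48 h library was left out. Its host Kif20b measured 4.59 to 5.90 in the sorafenib libraries. The other genes that the naming rule took did not pass (adjusted p = 0.614 each). Cdkn1a, the p53-induced inhibitor of cell division, was 67.3, 61.1 and 47.2 at 4 h, 23.3 and 25.3 at 24 h and 17.9 and 32.3 at 48 h, against 36.0, 45.3 and 28.8 in vehicle. All 4 h libraries lay above vehicle and all but 1 later library below it. Pooled, its log2 difference was −0.04 (SE 0.38). Dyrk3, a kinase of stress granules, was 9.51, 8.33 and 6.70 at 4 h against 3.96 to 5.49 later. Inf2, an actin-assembling formin, was 5.75, 5.88 and 7.63 at 4 h against 10.2 to 12.6 later, and Cirbp, a cold-inducible RNA-binding protein, was 5.11, 5.52 and 4.69 at 4 h against 7.84 to 8.84 later. Of 21 p53 targets 10 had an unadjusted p under 0.05 among the times, as did 8 of 19 hypoxia genes and 7 of 23 acute phase genes, where 6.71% of all genes did.

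Hmga1b is a copy of Hmga1, which encodes a chromatin protein of growing cells, and the values of both have to be read together. Of 1527 stretches of 100 bases in its annotated transcript, 1203 (78.8%) are identical to a stretch of 1 Hmga1 transcript, so a read from there matches both genes. How shared reads were assigned is not given in the sources used here. Hmga1b was 3.24, 2.12 and 3.26 FPKM in the 4 h libraries, 138, 205 and 162 in vehicle and 161 to 281 in the 24 h and 48 h libraries (log2 difference at 4 h −5.44, SE 0.26, adjusted p = 7.84e-05). Hmga1 was 433, 362 and 358 at 4 h and 105 to 314 in the other 7 libraries. The sum of both was 436, 364 and 361 at 4 h, 327, 519 and 370 in vehicle and 386 to 432 later. The sum at 4 h lies within the vehicle range, and the 4 h libraries differed from the rest in how it was split between the copies. The split also varied within the later groups. Hmga1b was above Hmga1 in 24 h library 1 (277 against 112) and 48 h library 1 (281 against 105). In library 2 of both times, and in vehicle, Hmga1 was the higher. The calls of Hmga1b, at 4 h and among times, were lost with all 24 libraries in 1 fit and in no other setting tried.

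**Figure D5:**
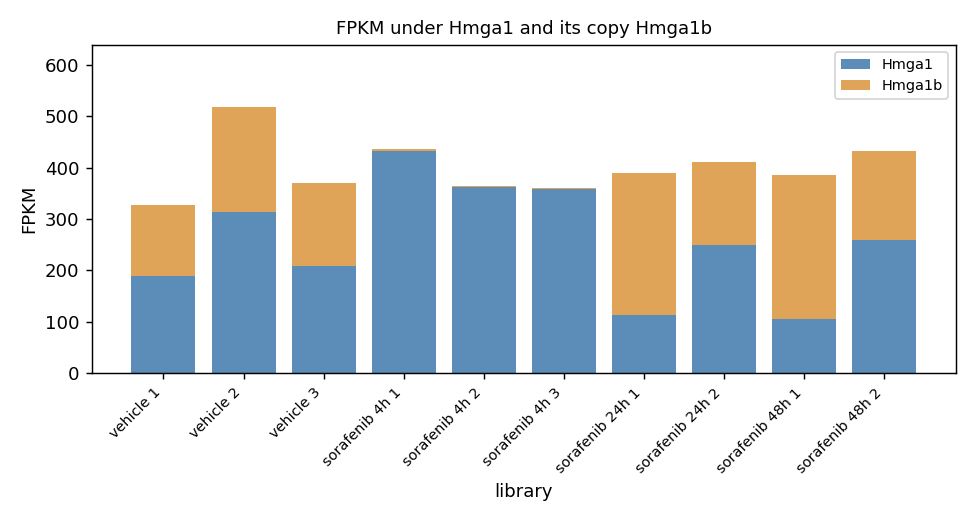
Stacked bars give the FPKM listed under Hmga1 and under Hmga1b in each of the 10 libraries, on a linear axis from 0. In the 3 libraries of sorafenib at 4 h almost all of the sum is listed under Hmga1, while the height of the bars, 361 to 436, is within that of vehicle, 327 to 519.

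The sex of the animals is not in the labels. Xist was at most 0.0291 FPKM and Ddx3y was 6.33 to 9.23 in all 10 libraries, with vehicle and sorafenib overlapping. The immune checkpoint ligand Cd274 was 1.68, 2.58 and 0.504 in vehicle and 0.634 to 1.49 in sorafenib (log2 difference −0.28, SE 0.24).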

How the data were processed

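RNA sequencing libraries of bulk tumour pieces were prepared and sequenced by the authors, per the labels' protocols. STAR 2.5 and HTSeq 0.6.1 and the mm9 build are named in the submitters' processing notes, without their roles. The authors deposited 1 table of FPKM values per gene and library. How reads shared by several genes were counted, and whether counting used strand, is not given in the sources used here. Columns were matched to libraries by the code in each sample's description, and groups were taken from the titles. Of 54532 entries, 27 whose names had become dates and 102 whose symbol also belonged to an entry of higher level were left out.

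Genes reaching an FPKM of 1 in 2 or more of the 10 libraries were tested with limma 3.58.1 in R 4.3.3 (lmFit and eBayes with trend) on log2(FPKM + 1), as 7 sorafenib against 3 vehicle libraries. A second fit had 1 mean for each of the 4 groups and gave the single times and the F test among times. P-values were adjusted by Benjamini-Hochberg over the 12088 genes, with a threshold of 0.05. FPKM steps gave whole reads, within a tolerance of 0.02 reads, for 98.3 to 98.6% of low values, and voom was run on these reads as an alternative chosen after seeing the data. No pair of libraries within a group agreed within sampling noise (chi-square per gene 23.9 to 125), which speaks only to 1 library deposited more than once, not to whether the libraries come from separate animals.

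The 62 gene lists hold 1171 genes, of which 1166 were in the table and 943 were tested. The members and lists were chosen with earlier results of these data known. Named genes are up to 12 per direction in the pooled comparison without overlap, whose higher group averaged 5 FPKM or more, taken by the smallest p since none passed the adjusted threshold. That choice passed over pseudogenes, gene models without a proper symbol, antigen receptor segments and the Mup family. To these come up to 5 per single time and among times, up to 4 per list by smallest p, all target kinases and RAS-ERK genes, and 11 fixed genes. Genes named outside this rule are said to be so or are hosts or copies of a named gene. A few genes that the rule takes are not reported here. Alternatives were another pseudocount, other filters, other scalings, all 24 libraries in 1 fit, equal weight for the 3 times, a replicate or code block, eBayes without trend, array weights, and leaving out each library or each time.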

Additional observations from a re-analysis of the deposited data

Results flagged for a closer look

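Single libraries stood apart from the other 6 sorafenib libraries in 7 of 83 values checked by Dixon's test, and chance flags about 1 in 20 groups. Arf6 was 90.02 FPKM in sorafenib 4 h library 1 and 62.4 to 70.2 in the others. Acot3 was lowest in the same library, at 4.2485 FPKM against 5.37 to 5.83. Ccdc117 was 23.6847 FPKM in sorafenib 24 h library 1 and 20.9 to 22.1 elsewhere, and Nrde2 was 4.18372 FPKM there against 5.11 to 5.81. The median difference from vehicle over the sorafenib target kinases was −0.224 (log2) in sorafenib 4 h library 3 and 0.000935 to 0.121 in the others. Red cell genes had a median difference of 0.747 (log2) in sorafenib 24 h library 2 and of −0.694 to −0.407 in the others. The share of FPKM in globin genes was 0.109% in that library and 0.0203 to 0.0329% in the other 6.

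The sorafenib times differed by the limma F test for Hmga1b (adjusted p = 9.22e-05) and Mir1950 (adjusted p = 0.0328). Hmga1b shares most of its sequence with Hmga1, and Mir1950 rests on at most 11 reads per library and lost its call with voom (adjusted p = 0.597).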

How the results depend on the processing

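In the pooled comparison no gene was called in any alternative except with no filter on low values, which called 2. The call counts at single times moved. At 4 h (3 genes) the count was 1 with FPKM of 5 or more, array weights or voom, 0 with all 24 libraries in 1 fit, and 1 to 3 leaving out 1 library. At 24 h (0 genes) it was 7 with no filter, 3 with quantile normalization, 2 without trend, 2 with array weights, 1 with all 24 libraries, and 0 to 1 leaving out 1 library, with 1 gene without vehicle 3 (Iigp1) or without sorafenib 4 h library 3 (Rps4l). At 48 h (0 genes) it was 4 with no filter and 0 leaving out 1 library. Among times (2 genes) it was 12 with no filter, 5 without trend, 5 with array weights, 4 with quantile normalization, 1 with a pseudocount of 0.1, FPKM of 5 or more, all 24 libraries, the code as a block or voom, and 1 to 3 leaving out 1 library. The cause was not tested.

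Whether the replicate numbers pair the samples could not be settled. Deviations from the group mean in 13 same-numbered pairs correlated at −0.409 to 0.263, with 5 over 0.1. Pairs among vehicle, 24 h and 48 h libraries gave 0.0527 to 0.263, and every negative value involved a 4 h library. In groups of 2 libraries the deviations mirror each other, so these values are not independent. With the replicate block the pooled comparison called 0 (1076 at an unadjusted p under 0.05), 4 h called 1 and the times called 6. Under that block the log2 difference was −0.0043 for Braf, −0.0559 for Csf1r, −0.0279 for Spry1 and −0.0245 for Vegfa.

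Small differences changed sign. Without the 4 h libraries the log2 difference was 0.0141 for Dusp6, −0.0229 for Dusp7, 0.0966 for Ccnd1, 0.035 for Mki67 and −0.0937 for Vegfa. Without the 24 h libraries it was 0.173 for Cdkn1a and 0.869 for Cyp3a11. Without the 48 h libraries it was −0.00563 for Braf, −0.00497 for Spry1, −0.0757 for Alb, 0.178 for Cdkn1a and −0.0168 for Vegfa. The code block gave −0.102 for Alb, 0.0409 for Cdkn1a and −0.0119 for Vegfa, array weights gave 0.0506 for Pdgfrb and 0.247 for Cyp3a11, and Vegfa was −0.011 with quantile normalization and −0.0147 with the 3 times weighted equally. Leaving out 1 library gave −0.0394 to 0.141 for Braf, −0.365 to 0.113 for Pdgfrb, −0.188 to 0.224 for Csf1r, −0.126 to 0.0152 for Dusp6, −0.0487 to 0.141 for Dusp7, −0.0699 to 0.114 for Spry1, −0.431 to 0.137 for Phlda1, −0.177 to 0.0165 for Ccnd1, −0.453 to 0.526 for Alb, −0.149 to 0.000172 for Mki67, −0.193 to 0.124 for Cdkn1a, −0.206 to 0.199 for Vegfa and −1.12 to 0.977 for Cyp3a11.

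The 3 vehicle libraries limit the pooled comparison: a gene without a call is not shown to be equal in both groups.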

Other observations

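Genes that mark resident Kupffer cells were nearly missing from single libraries. Clec4f, a lectin of Kupffer cells, was 0.121 FPKM in vehicle 3 and 0.134 in sorafenib 24 h library 2, and 2.99 to 20.6 in the other 8 libraries. Vsig4, a complement receptor, was 0.0367 and 0.389 in the same pair of libraries and 2.15 to 7.59 in the others, and Marco, a scavenger receptor, was 0.0849 and 0.157 against 1.35 to 4.95. Cd5l and Timd4 were not low in sorafenib 24 h library 2. These genes were chosen after their values were seen.

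Rps4l, a copy of a ribosomal protein gene, was 18.0 and 20.48 FPKM in the 24 h sorafenib libraries, 1.13, 1.52 and 3.16 at 4 h, 5.62 and 4.12 at 48 h, and 3.77, 2.52 and 1.99 in vehicle. Of the Y-linked genes, Kdm5d was 0.0742 FPKM in vehicle 2 and 0.802 to 1.43 in the other 9 libraries, while Uty was 1.20 and Eif2s3y was 8.14 in vehicle 2. These genes too were chosen after their values were seen.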
